A study of Mus musculus with 6 samples.

Results

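The nuclear genes for the subunits of respiratory chain complexes I, III and IV and of the ATP synthase (complex V) were followed in mouse leukemia cells given an inhibitor of the histone demethylase LSD1. They were taken from the deposited expression table by symbol: every row that starts with Nduf, Uqcr or Atp5, or with Cox and a digit from 4 to 8. The rule found 83 of the 15035 genes in the table. Of these, 73 encode subunits (35 of complex I, 8 of complex III, 15 of complex IV and 15 of complex V) and 10 encode assembly or related factors that share the prefix. Ndufa4 and Ndufa4l2 were counted with complex IV, where the NDUFA4 protein is found in spite of its name.

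The cells came from BALB/c bone marrow and carried mutant CSF3R (the G-CSF receptor, which drives neutrophil production) together with mutant CEBPA, a myeloid transcription factor, both delivered by retrovirus. All 6 samples carried both mutants and grew in IMDM with serum. For 48 h, 3 samples received DMSO, the solvent, and 3 received 4 nM GSK-LSD1. No group without the mutants, no other dose and no other time was compared, and the labels do not name the mutations. Whether the 3 replicates were independent cultures or animals is not stated either, so the p-values reflect library-to-library spread that may be purely technical.

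Oxidative phosphorylation couples electron transport to ATP synthesis in the inner mitochondrial membrane. Complex I takes electrons from NADH, complex III passes them from ubiquinol to cytochrome c, and complex IV hands them to oxygen. The protons these complexes pump drive the rotary ATP synthase. A few catalytic subunits are encoded by the mitochondrial genome, which was not analysed here, and all other subunits are imported from the cytosol. Transcription factors of the ETS family (GABP among them), NRF1 and YY1 are known to bind many promoters of these nuclear genes.

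The values are read counts per gene divided by 1 scaling factor per library and are called scaled read counts below. Library totals were between 9877460 and 10107885. Kdm1a, the gene for LSD1, is the target of an inhibitor and not of a deletion, and its log2 change was -0.03. The myeloid genes Mpo, Spi1, Cebpa and Ptprc were expressed in every library, with Mpo at 7390 ± 377 (SD, n = 3) in DMSO. Genes of mast cells and basophils were abundant too, with Cpa3 at 14320 ± 982 (SD, n = 3), whereas the summed level of the B cell list was at most 7.81 in any library. Fewer cells of a kind and less RNA per cell cannot be told apart in such bulk RNA.

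A larger share of subunit genes than of all genes was lower in the GSK-LSD1 libraries, each by a small amount, and the largest group did not pass the test. Of 71 subunit genes with enough reads to test, 29 were lower, 1 was higher and 41 did not pass (limma on log2(value + 1), Benjamini-Hochberg adjustment over 11588 genes, adjusted p under 0.05). Over all tested genes 20.5% were lower and 20.6% higher, against 40.8% and 1.41% of the subunit genes. Well expressed genes, to which most subunit genes belong, were lower more often as a class. Among those averaging 200 or more scaled read counts, 26.4% of all genes were lower and 18.8% higher (median log2 change -0.04). The 67 subunit genes in that range were lower in 43.3% and higher in 1.49% of cases (median -0.14). The falls of subunit genes that passed were small, at most 27.4%. On the log2 scale the median change of the subunit genes was -0.13, beside -0.01 over all tested genes, and 63 of the 71 were below 0, as were 51.2% of all tested genes. For 25 of the 71 every GSK-LSD1 library lay below every DMSO library, which held for 24.8% of all tested genes.

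**Figure D1:**
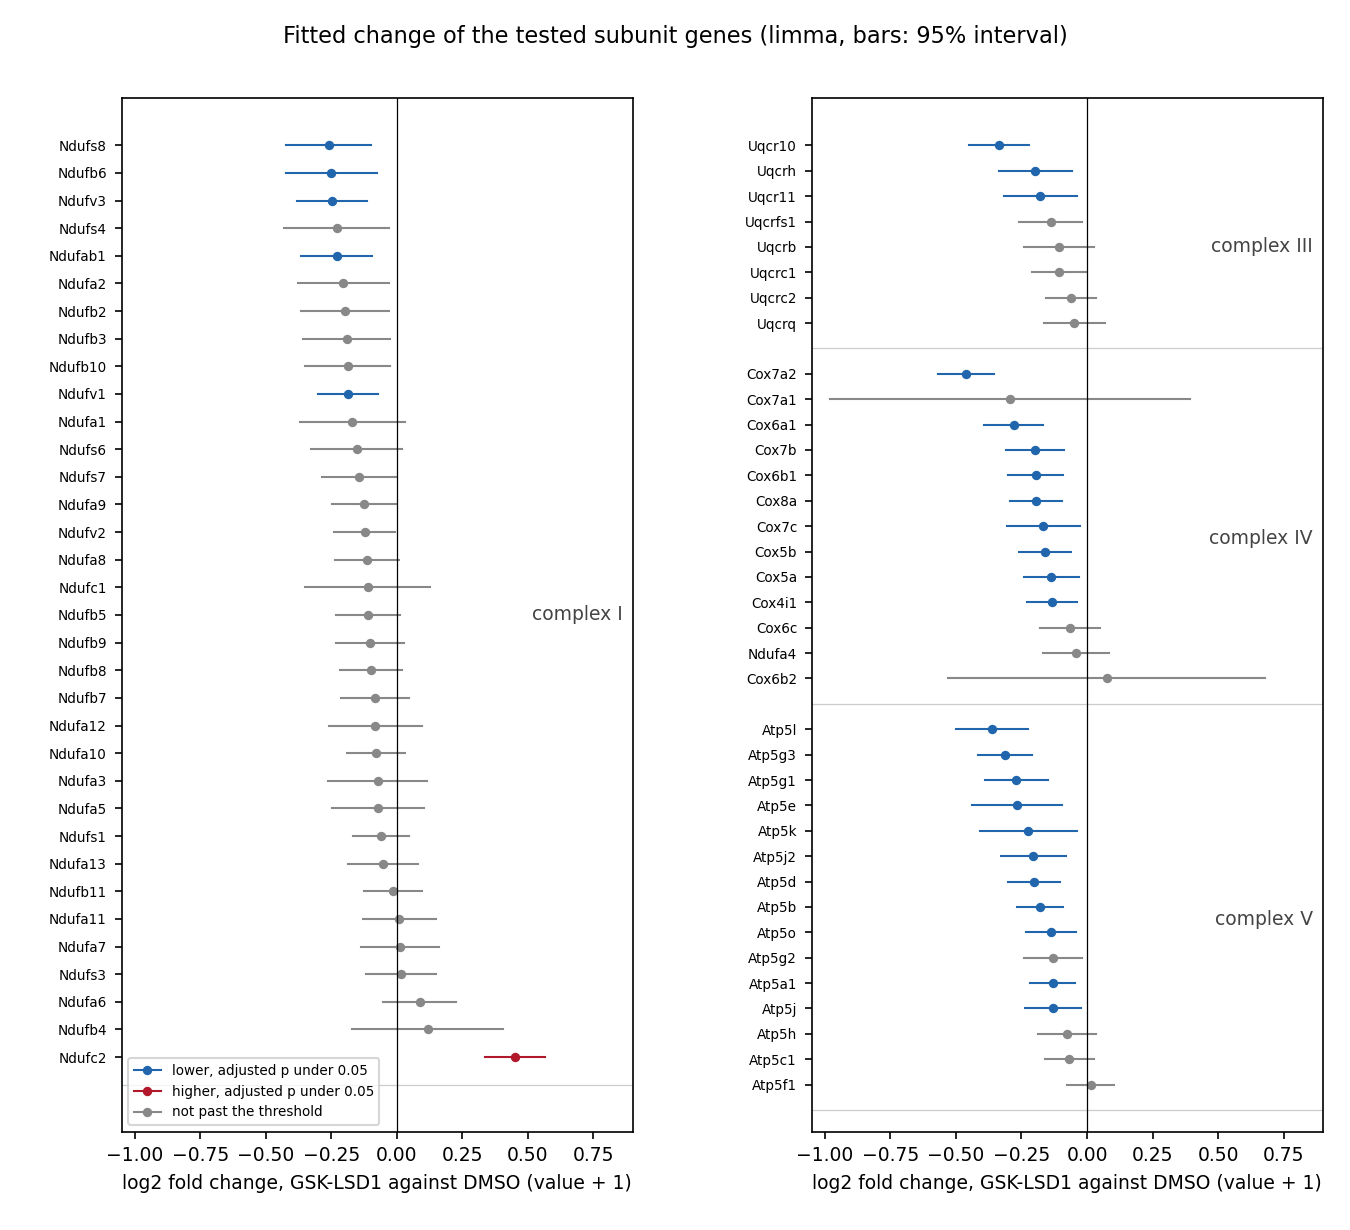
Fitted log2 fold change (x axis) of tested subunit genes, ordered within each complex, with points for estimates and bars for 95% confidence intervals. Blue points, the lower genes, gather in complexes IV and V, and the single red point is Ndufc2.

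By complex, 6 of 35 tested genes of complex I were lower (17.1%), 3 of 8 of complex III (37.5%), 9 of 13 of complex IV (69.2%) and 11 of 15 of complex V (73.3%). Complex I, the largest, was thus below the 20.5% of all tested genes. The median log2 changes were -0.11, -0.12, -0.17 and -0.18 in the same order, and with quantile scaling that of complex V was -0.12 beside -0.16 for complex IV. Whether the complexes differ from each other was not tested. Together the subunit genes held 0.941%, 1.00% and 0.951% of the DMSO library totals and 0.887%, 0.886% and 0.888% of the GSK-LSD1 totals. The groups did not overlap, and the 3 GSK-LSD1 libraries were nearly equal.

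The number of genes called rested in part on single libraries. DMSO replicate 2 was the highest of the 6 libraries for 42 of the 71 subunit genes. Without it 15 genes were lower, all of them among the 29, and the median log2 change was -0.12. That is 21.1% of the subunit genes, beside 17.3% of all genes and 25.3% of genes with a transcript under 1000 bases in the same fit. Without the mean-variance trend of the test 9 subunit genes were lower, 12.7%, beside 14.3% of all genes and 21.8% of these short genes, so that no excess remained. The count was 19 without GSK-LSD1 replicate 1 and 18 without GSK-LSD1 replicate 2. Genes lower in the main test and in each of the 15 alternative analyses numbered 7: Cox7a2, Cox6a1, Atp5l, Atp5g3, Atp5g1, Uqcr10 and Ndufv3.

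The subunits are small proteins and their transcripts are short, with a median length of 732 bases beside 2799.5 over all tested genes. Short transcripts as a class also lay low with GSK-LSD1. Among the 843 tested genes with a transcript under 1000 bases, 32.4% were lower and the median log2 change was -0.13. In the same length range 22 of 49 subunit genes (44.9%) were lower, with a median of -0.15. From 1000 up to 3000 bases, 23.6% of all genes were lower and 7 of 22 subunit genes (31.8%). DMSO replicate 2 also stood highest for short genes as a class, with a median deviation of 0.10 on the log2 scale from each gene's mean over the libraries. The part that transcript length or this library plays in the result was not tested.

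**Figure D2:**
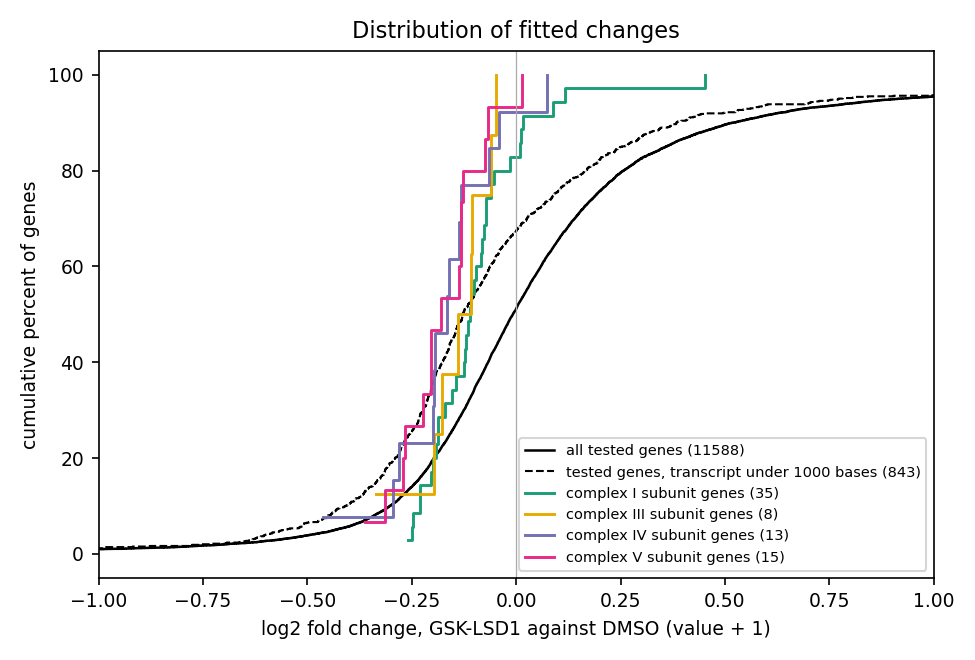
Cumulative percent of genes (y axis) at or below a given log2 fold change (x axis) for the subunit genes of each complex, all 11588 tested genes and the 843 tested genes with a transcript under 1000 bases. The complexes rise to the left of 0, as does part of the curve of short genes, and the long right tail of all genes is missing from the complexes apart from the step at Ndufc2.

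Known motifs were counted in the promoters of the subunit genes, and each was found in a minority of them. RefSeq windows (GRCm38.p6), from 250 bases before to 50 after the start of the gene, matched 70 of the 83 genes and 61 of the 73 subunit genes. Motifs were searched as exact letters on both strands, and overlaps between motifs were allowed. The NRF1 motif, GCGCA and GCGC with any 1 base between them, was in 13 of 61 subunit windows (21.3%) and in 6.60% of all 17492 windows. The YY1 motif GCCATNTT was in 15 of 61 (24.6%) beside 6.69%, the ETS motif CCGGAAG in 13 of 61 (21.3%) beside 11.9%. CCAAT, bound by NF-Y, was in 42.6% beside 39.0% of all windows, and GGGCGGG, bound by SP1, in 31.1% beside 34.0%.

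The ETS motif was spread unevenly: it was in 10 of the 26 lower genes with a window (38.5%) and in 3 of the 34 that did not pass (8.82%). For NRF1 the counts were 4 of 26 and 9 of 34, and for YY1 4 of 26 and 11 of 34. CCAAT also leaned to the lower genes, with 14 of 26 (53.8%) and 11 of 34 (32.4%), and GGGCGGG the other way, with 6 of 26 and 13 of 34. These are counts of letter matches with no test, made after the calls were known. Shares among all lower genes of the table were not computed. The split also depends on the calls: of the 10 lower genes with the ETS motif, Atp5k passed in 6 of the 15 alternatives and Uqcr11 in 9. Of the 7 genes lower in every alternative, Cox6a1 and Atp5l hold the ETS motif and the others do not. The sites of the 10 lower genes are printed below with 10 bases on each side, read along the strand that spells the motif, with CCGGAAG in capitals. Where a window holds 2 matches (Atp5l and Cox8a, and Ndufs3 further on), the match nearest the start is printed. Each position is that of the first motif base in the direction of the gene, where 1 is the start base and -1 the base before it.
Atp5l, chr9:44920702-44920728, plus strand, position 25: aatgtcacccCCGGAAGgacccgcggc
Cox6a1, chr5:115348958-115348984, plus strand, position -16: caccggcgcgCCGGAAGcggaaatggg
Atp5e, chr2:174464187-174464213, plus strand, position -102: cgagcggctaCCGGAAGctgtggccgt
Ndufs8, chr19:3912743-3912769, plus strand, position 16: tgcggttcaaCCGGAAGgcggagccta
Ndufb6, chr4:40279637-40279663, plus strand, position -232: ggggaggggaCCGGAAGaacaaggacg
Atp5k, chr5:108434371-108434397, plus strand, position 13: gaccttcgcgCCGGAAGctcaactgag
Uqcrh, chr4:116075064-116075090, plus strand, position -10: ggcgacctggCCGGAAGtgcggcatac
Cox6b1, chr7:30626126-30626152, plus strand, position -28: ttccgactggCCGGAAGctgcgagagg
Cox8a, chr19:7217605-7217631, plus strand, position -5: gacgcccgagCCGGAAGtatttcggaa
Uqcr11, chr10:80406871-80406897, minus strand, position -66: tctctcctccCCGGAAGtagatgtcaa

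Of these 10 printed sites 9 lay on the strand opposite to the gene, and 7 began before the start. Among genes that did not pass, the motif was in these 3 windows, printed the same way for comparison.
Ndufb7, chr8:83566728-83566754, plus strand, position -20: cctagatgacCCGGAAGacactgaagg
Atp5h, chr11:115419941-115419967, plus strand, position -38: aagagagttgCCGGAAGttctctcctt
Ndufs3, chr2:90904704-90904730, plus strand, position 2: agggcacggaCCGGAAGtggaaatgtg

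Promoters of 3 members are given as the 200 bases before the start, on the strand of the gene. They are Cox6a1, a lower gene with NRF1 and ETS motifs, Cox7a2, the subunit gene that fell furthest, and Ndufc2, the single gene called higher. Capitals mark NRF1 and ETS matches on either strand. These stretches of Cox7a2 and Ndufc2 hold neither of them, nor the YY1 motif.
Cox6a1, chr5:115348959-115349158, minus strand: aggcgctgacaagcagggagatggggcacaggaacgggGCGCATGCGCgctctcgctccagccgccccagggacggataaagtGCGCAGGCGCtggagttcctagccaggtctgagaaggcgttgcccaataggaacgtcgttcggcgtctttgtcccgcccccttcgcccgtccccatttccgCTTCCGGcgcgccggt
Cox7a2, chr9:79759854-79760053, minus strand: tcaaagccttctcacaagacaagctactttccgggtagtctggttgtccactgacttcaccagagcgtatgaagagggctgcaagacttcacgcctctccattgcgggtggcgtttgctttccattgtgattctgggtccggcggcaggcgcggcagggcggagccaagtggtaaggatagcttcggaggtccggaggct
Ndufc2, chr7:97399803-97400002, plus strand: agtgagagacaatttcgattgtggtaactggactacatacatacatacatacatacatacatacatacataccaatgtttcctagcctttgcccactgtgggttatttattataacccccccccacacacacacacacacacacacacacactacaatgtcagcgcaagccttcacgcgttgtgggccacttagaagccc

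Complex I has a peripheral arm, whose core subunits carry flavin and iron-sulfur clusters, and a membrane arm that pumps protons. Of its 7 nuclear core genes 3 were lower, and of its 28 accessory genes 3 were lower and 1 higher. The core gene Ndufv1 encodes the subunit that binds NADH and flavin. It was at 894, 901 and 926 in DMSO and at 815, 766 and 810 with GSK-LSD1, scaled read counts in replicates 1 to 3. Every GSK-LSD1 library was below every DMSO library (log2 change -0.19, SE 0.056, adjusted p = 0.00696).

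Ndufs8, a core gene whose protein holds iron-sulfur clusters on the way to quinone, was at 466, 493 and 441 in DMSO and at 338, 443 and 395 with GSK-LSD1. Its groups overlapped at the margin, GSK-LSD1 replicate 2 lying just above DMSO replicate 3 (log2 change -0.26, SE 0.08, adjusted p = 0.00883). Of the core genes that did not pass, Ndufs7 had a log2 change of -0.14 and Ndufs3 of 0.02.

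Ndufv3, an accessory gene of the NADH-oxidising end, was at 587, 625 and 563 in DMSO and at 503, 521 and 471 with GSK-LSD1. The groups did not overlap (log2 change -0.25, SE 0.066, adjusted p = 0.00259). Ndufab1, the mitochondrial acyl carrier protein, which also serves fatty acid synthesis, went from 746 ± 78.7 to 634 ± 34.8 (SD, n = 3 each), without overlap, with a log2 change of -0.23 and an adjusted p of 0.00554. Ndufb6, of the distal membrane arm, was at 368, 382 and 321 in DMSO and at 335, 268 and 299 with GSK-LSD1. These values overlapped and the adjusted p was 0.0184.

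Apart from Ndufc2, described below, the other accessory genes of complex I did not pass. Ndufs4, of the peripheral arm, had the largest log2 change among them, -0.23 with a 95% confidence interval from -0.43 to -0.03 and an adjusted p of 0.0595. For Ndufa2, Ndufb2 and Ndufa8 every GSK-LSD1 library was below every DMSO library, with log2 changes of -0.20, -0.20 and -0.11, and none passed. At the other end, Ndufa11 and Ndufa7 had log2 changes of 0.01 each, Ndufa6 0.09 and Ndufb4 0.12. Among the 10 tested accessory genes of the distal membrane arm 1 was lower, and among 9 accessory genes of the peripheral arm 1. Among 8 accessory genes of the proximal membrane arm none was lower and 1 was higher. The 7 core genes, 3 of them lower, belong to the peripheral arm as well and are not in these counts. The count of lower complex I genes was 2 without DMSO replicate 2, 10 without DMSO replicate 3 and 3 without GSK-LSD1 replicate 1 or replicate 2. Without DMSO replicate 2 there were 2 higher genes in the complex, Ndufa6 beside Ndufc2.

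Ndufc2, which encodes an accessory subunit of the proximal membrane arm, was the single subunit gene called higher in the main test. It was at 1155, 1121 and 1016 in DMSO and at 1602, 1415 and 1484 with GSK-LSD1. The lowest GSK-LSD1 library exceeded the highest DMSO library, and the mean rose by 36.7% (log2 change 0.45, SE 0.056, 95% confidence interval 0.34 to 0.56, adjusted p = 3.18e-08). It was higher in all 15 alternatives. Ndufc1, whose protein sits beside NDUFC2 in the complex, had a log2 change of -0.11 (95% confidence interval -0.35 to 0.13).

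**Figure D3:**
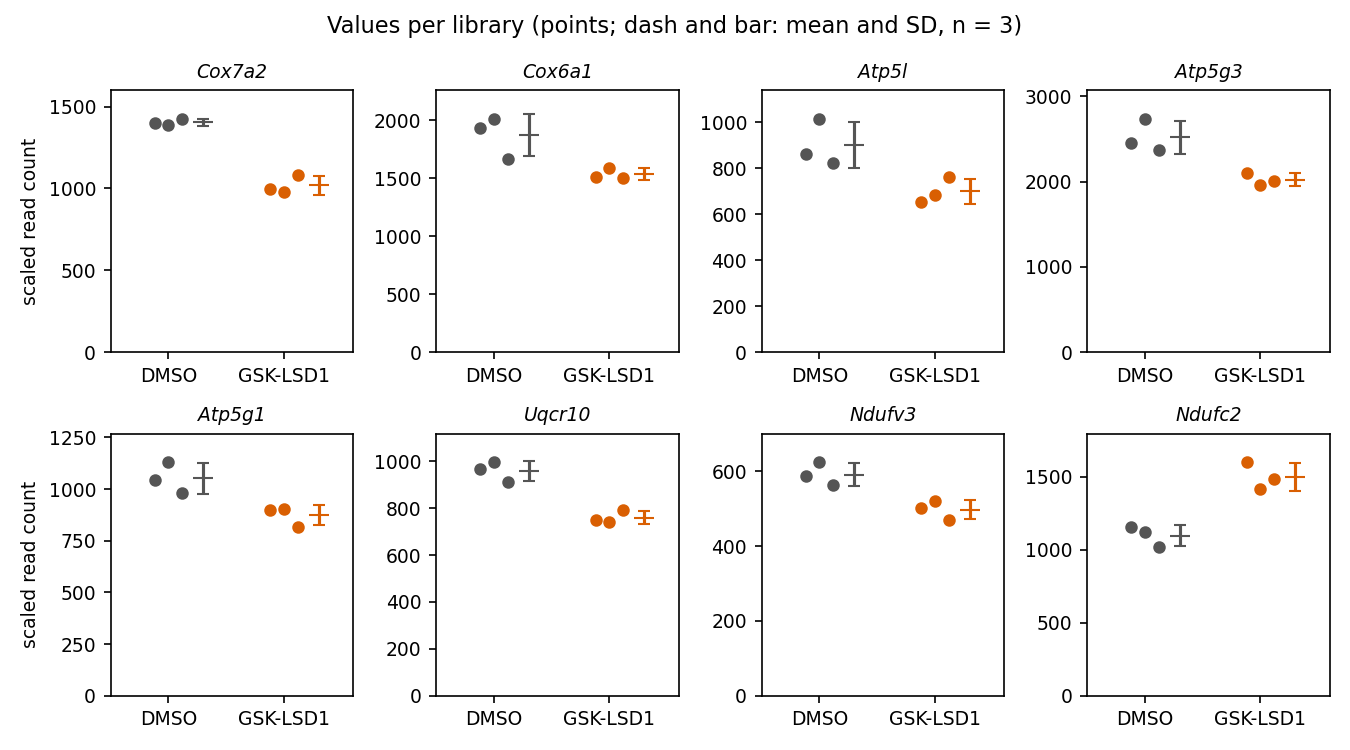
Scaled read counts (y axis, from 0) in each library for the 7 subunit genes that were lower in every alternative and for Ndufc2, with the mean and SD of 3 libraries beside the points. In each panel the DMSO and GSK-LSD1 points do not overlap.

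Ndufc2 lies on chromosome 7, bases 97400003 to 97407802 on the plus strand (GRCm38), and its neighbours were examined after its rise was seen. Kctd14, the nearest of these on the same strand downstream, begins 43520 bases beyond the end of Ndufc2. It was at 32.2, 36.7 and 27.9 in DMSO and at 295, 288 and 282 with GSK-LSD1, an 8.75-fold rise on the log2(value + 1) scale (log2 change 3.13, adjusted p = 1.54e-20). Ints4, a subunit gene of the Integrator complex further along, went from 794 ± 47.4 to 968 ± 16.4 (SD, n = 3 each; log2 change 0.29, adjusted p = 9.61e-05).

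On the other side, Alg8, a glycosylation enzyme gene that ends 7817 bases from the start of Ndufc2, had a log2 change of 0.04, and so had Gab2. Usp35 and Kctd21 had log2 changes of 0.51 and 0.44 at low levels and did not pass. Thrsp, between Ndufc2 and Kctd14 on the opposite strand, was too low to test, at 0.977, 4.95 and 1.99 in DMSO and at 15.3, 13.5 and 9.73 with GSK-LSD1. Aamdc had a log2 change of 0.13 and did not pass. In all, 2 of the 7 tested neighbours were higher and none lower, where 20.6% of all tested genes were higher, so the count itself is near the background.

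**Figure D4:**
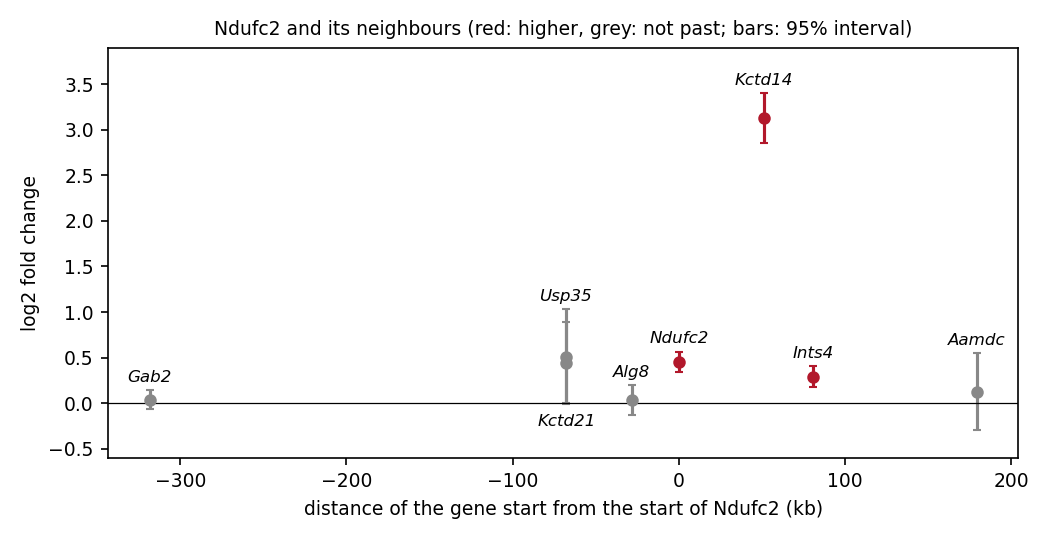
Log2 fold change (y axis, bars 95% confidence intervals) of Ndufc2 and its 7 tested neighbours against the distance of the gene start from that of Ndufc2 in kilobases (x axis). Kctd14 stands alone at 3.13, while Ndufc2 at 0.45 and Ints4 at 0.29 are the other genes that passed.

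In complex III 3 of the 8 genes that the name rule reaches were lower and none was higher, and all 3 encode small subunits. Cyc1, the gene for the subunit cytochrome c1, lies outside the rule and was lower too (log2 change -0.26, adjusted p = 8.15e-05). Uqcr10, a small subunit beside cytochrome c1, was at 966, 997 and 913 in DMSO and at 748, 739 and 791 with GSK-LSD1. Every GSK-LSD1 library was clearly below the DMSO range, and the fitted fall was 20.7% (log2 change -0.34, SE 0.057, adjusted p = 1.04e-05). Uqcrh, the hinge protein that helps cytochrome c dock, was at 728, 832 and 726 in DMSO and at 598, 661 and 737 with GSK-LSD1, with overlap (log2 change -0.20, adjusted p = 0.0192). Uqcr11, another small subunit, went from 721 ± 77.9 to 635 ± 44.5 (SD, n = 3 each), with overlap and an adjusted p of 0.0344.

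Uqcrfs1, the Rieske iron-sulfur protein that accepts electrons from ubiquinol, missed the threshold with a log2 change of -0.14 (95% confidence interval -0.26 to -0.02, adjusted p = 0.056). The core protein genes Uqcrc1 and Uqcrc2 did not pass, with log2 changes of -0.11 (95% confidence interval -0.21 to 0.0004) and -0.06 (-0.15 to 0.04). Uqcrq and Uqcrb, small subunits, had -0.05 and -0.11, and Uqcrb has 4 annotated near-copies that could share its reads. Without DMSO replicate 1 the count of lower genes was 5, and without DMSO replicate 2 it was 1, Uqcr10 being among the 7 genes lower in every alternative.

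In complex IV 9 of 13 tested genes were lower, and none was higher. Its nuclear subunits surround the mitochondrially encoded catalytic core. Cox7a2, on chromosome 9, bases 79755361 to 79759878, encodes the widely expressed form of subunit VIIa. It was at 1397, 1387 and 1427 in DMSO and at 998, 976 and 1085 with GSK-LSD1. The DMSO libraries were close together and far above all GSK-LSD1 libraries. The mean fell by 27.4%, the largest fall of any tested subunit gene (log2 change -0.46, SE 0.053, 95% confidence interval -0.57 to -0.36, adjusted p = 5.69e-09).

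Cox6a1, the widely expressed form of subunit VIa, was at 1934, 2016 and 1666 in DMSO and at 1513, 1592 and 1506 with GSK-LSD1. The groups did not overlap (log2 change -0.28, SE 0.055, adjusted p = 9.43e-05). Cox7b went from 1402 ± 100.1 to 1219 ± 49.9, Cox6b1 from 2145 ± 51.1 to 1875 ± 151 and Cox8a from 2696 ± 195 to 2350 ± 8.47 (SD, n = 3 each). Each of these 3 small subunit genes had a log2 change of -0.20, no overlap between groups, and a call in 14 of the 15 alternatives.

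Cox5a and Cox5b, matrix-facing subunits, and Cox4i1, a regulatory subunit known to bind ATP, had log2 changes of -0.14, -0.16 and -0.13. All 3 were lower without overlap, with adjusted p-values of 0.0319, 0.00752 and 0.0217. Cox7c passed narrowly and with overlap (log2 change -0.17, adjusted p = 0.0495). Cox6c and Ndufa4 did not pass, with log2 changes of -0.07 (95% confidence interval -0.18 to 0.05) and -0.04 (-0.17 to 0.08). Without GSK-LSD1 replicate 1 the count of lower genes was 5.

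Several complex IV subunits have tissue forms, and the cells used the widely expressed ones. Cox6a2, the heart and muscle form of subunit VIa, had 0 to 1.99 scaled read counts per library and made up 0.075% ± 0.0296 of the VIa pair per transcript length in DMSO and 0.0181% ± 0.0313 with GSK-LSD1 (SD, n = 3 each). Cox6b2, the testis form of VIb, made up 0.948% ± 0.216 of its pair in DMSO and 1.13% ± 0.0632 with GSK-LSD1 (SD, n = 3 each). Cox7a1, the heart and muscle form of VIIa, was at 9.77 to 18.8 in DMSO and 9.73 to 12.2 with GSK-LSD1, and made up 1.63% ± 0.545 and 1.75% ± 0.267 of the VIIa pair. These shares lay within the spread of the libraries or a fraction of a percentage point apart. Ndufa4l2, a paralog of Ndufa4 known as a hypoxia-induced gene, was at 6.21 or less in every library and was not tested.

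Complex V had the most lower genes, 11 of 15, with none higher. Its F1 head makes ATP from ADP and phosphate, the c ring turns with the protons, and a peripheral stalk holds the head still. In the F1 head and central stalk 4 of 5 genes were lower. Atp5b, the catalytic beta subunit, was the most abundant member per transcript length, at 7370 scaled read counts per kilobase in DMSO, ahead of Cox8a at 4901 and Atp5a1 at 4588. It was at 13641, 14582 and 14141 in DMSO and at 12470, 12503 and 12401 with GSK-LSD1, without overlap (log2 change -0.18, SE 0.043, adjusted p = 0.00083).

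Atp5a1, the alpha subunit, went from 11337 ± 280.5 to 10351 ± 204 and Atp5d, the delta subunit, from 2927 ± 211 to 2537 ± 56.1 (SD, n = 3 each). Both were lower without overlap, with log2 changes of -0.13 and -0.20. Atp5e, the epsilon subunit, was at 400, 416 and 323 in DMSO and at 317, 295 and 329 with GSK-LSD1, with overlap through DMSO replicate 3 (log2 change -0.27, adjusted p = 0.011). Atp5c1, the gamma subunit that forms the central shaft, did not pass (log2 change -0.07, 95% confidence interval -0.16 to 0.03).

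All 3 small membrane subunits that the name rule reaches were lower, whereas 2 small subunits under other names, given further on, did not pass. Atp5l, subunit g, was at 864, 1017 and 823 in DMSO and at 654, 685 and 761 with GSK-LSD1. The groups did not overlap and the fitted fall was 22.1% (log2 change -0.36, SE 0.067, adjusted p = 4.27e-05), though 13 annotated near-copies of Atp5l could take or give reads. Atp5k, subunit e, and Atp5j2, subunit f, had log2 changes of -0.22 and -0.20, with overlap in both. Atp5k passed in 6 of the 15 alternatives and Atp5j2 in 13.

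In the peripheral stalk 2 of 4 genes were lower, both without overlap: Atp5o, which caps the stalk on the head, with a log2 change of -0.14, and Atp5j, subunit F6, with -0.13. An exon of Atp5j overlaps Gabpa on the opposite strand, and how the counting treated strand is not given in the sources used here. Atp5h, subunit d, had -0.08 and did not pass. Atp5f1, subunit b, was at 3261, 3203 and 3388 in DMSO and at 3250, 3371 and 3319 with GSK-LSD1. Its groups overlapped fully, and its log2 change of 0.01 had a 95% confidence interval from -0.08 to 0.10. Without DMSO replicate 2 the count of lower complex V genes was 6, and without GSK-LSD1 replicate 2 it was 7.

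The c ring is made of a single mature protein encoded by 3 genes, Atp5g1, Atp5g2 and Atp5g3, which differ in the peptide that directs import. Atp5g3 was at 2448, 2741 and 2377 in DMSO and at 2106, 1961 and 2009 with GSK-LSD1, without overlap (log2 change -0.31, SE 0.051, adjusted p = 4.47e-06). Atp5g1 was at 1045, 1131 and 983 in DMSO and at 898, 903 and 817 with GSK-LSD1, also without overlap (log2 change -0.27, SE 0.059, adjusted p = 0.000312). Atp5g2 was at 1168, 1206 and 1074 and then at 1064, 1024 and 1057. Its groups did not overlap, but the change missed the threshold (log2 change -0.13, adjusted p = 0.0509).

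Per transcript length, Atp5g3 held 44.7% ± 0.793 of the c-ring level in DMSO and 42.5% ± 0.65 with GSK-LSD1 (SD, n = 3 each), and Atp5g2 33.0% ± 0.778 and 35.6% ± 0.711. Both differences, -2.20 and 2.62 percentage points, separated all libraries, and the two-sided exact permutation p was 0.1 for each (0.15 adjusted over the 3 genes), the smallest that 3 against 3 libraries allow. Atp5g1 held 22.3% ± 0.0901 and 21.9% ± 1.09, with overlap (exact permutation p = 0.7). Its difference of -0.42 points became 0.128 without GSK-LSD1 replicate 3. A shift of the order of 2 points from Atp5g3 to Atp5g2 was thus seen in all libraries but cannot reach significance in this design.

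**Figure D5:**
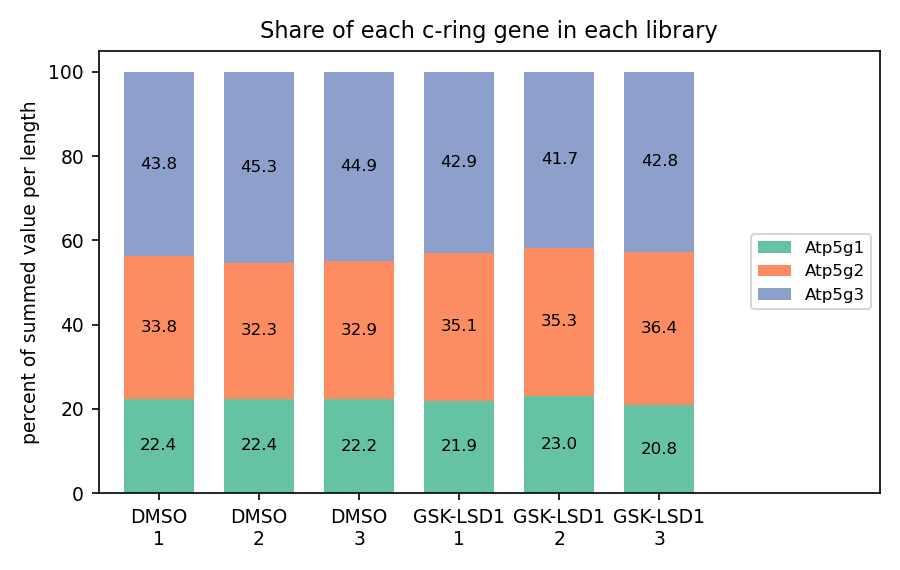
Share of Atp5g1, Atp5g2 and Atp5g3 in their summed scaled read count per transcript length (y axis, percent) in each of the 6 libraries (x axis). Atp5g2 holds 32.3% to 33.8% in DMSO and 35.1% to 36.4% with GSK-LSD1, and Atp5g3 43.8% to 45.3% and 41.7% to 42.9%.

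Of the 10 assembly and related factors caught by the name rule, 3 were lower and none was higher. Ndufaf2, an assembly factor for the last steps of complex I, was at 104, 130 and 129 in DMSO and at 68.4, 83.8 and 83.7 with GSK-LSD1. The groups did not overlap, and the mean fell by 34.6%, more than that of any tested subunit gene (log2 change -0.61, SE 0.14, adjusted p = 0.000402). Ndufaf4 went from 516 ± 14.3 to 436 ± 11.4 and Ndufaf1 from 240 ± 20.4 to 201 ± 8.23 (SD, n = 3 each), both without overlap (log2 changes -0.24 and -0.25, adjusted p = 0.00347 and 0.0316). Ndufaf2 and Ndufaf4 passed in all 15 alternatives and Ndufaf1 in 9.

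Ndufaf3, Ndufaf5, Ndufaf6 and Ndufaf7 did not pass, with log2 changes from -0.27 for Ndufaf6 to 0.01 for Ndufaf5. Cox7a2l, which helps join complexes III and IV into supercomplexes, had a log2 change of -0.04 (95% confidence interval -0.15 to 0.07), while its paralog Cox7a2 was at -0.46, and the difference between them was not tested. Atp5s and Atp5sl, which are not core parts of the ATP synthase, had -0.12 and 0.10 and did not pass. Usmg5 and 2010107E04Rik encode small ATP synthase subunits under other names and had -0.05 and -0.16, neither past the threshold.

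Genes in and around the chain that the name rule does not reach gave a mixed picture. They are to be read beside the 20.5% of all tested genes that were lower and the 20.6% that were higher. The list of complex II and electron carriers held 6 genes. Cyc1, for cytochrome c1 of complex III (log2 change -0.26), Cycs, for cytochrome c (-0.18), and Sdhd (-0.15) were lower. Sdha, Sdhb and Sdhc, at -0.03, -0.03 and -0.02, did not pass. Of 8 other complex I assembly genes 2 were higher, Tmem126a (0.26) and Tmem186 (0.25), and none was lower. Of 10 assembly genes of complexes II and III, Sdhaf1 (-0.35) and Sdhaf2 (-0.18) were lower. Of 4 for complex V, Atpaf2 (-0.23) and Tmem70 (-0.19) were lower.

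Among 22 complex IV assembly genes 5 were lower, a share near the background: Cmc2 (-0.52), the heme A enzyme Cox10 (-0.38), Coa3 (-0.38), Surf1 (-0.23) and Cox18 (-0.22). Of 20 tested regulators of respiratory gene transcription, 17 did not pass. Nrf1 had a log2 change of -0.15, Gabpa -0.07, Yy1 -0.04 and Tfam, the mitochondrial DNA packaging factor, -0.13. Pprc1, a coactivator of the PGC-1 family, was lower (-0.30), as was Polg (-0.29), the mitochondrial DNA polymerase. Hif1a, the hypoxia factor, was higher (0.57).

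Marker genes of the myeloid leukemia cells and of other cell types were looked at as well. Over all tested genes 20.5% were lower and 20.6% higher, beside which the counts of these short lists are to be read. All 8 tested red cell genes were lower, and their summed level went from 303 to 371 in DMSO to 55.5 to 71.4 with GSK-LSD1, with Slc4a1 at 0 in GSK-LSD1 replicate 1. Mast cell and basophil genes summed to 32364 to 34607 in DMSO and 41106 to 42586 with GSK-LSD1. Of these 8 genes 3 were higher, 1 was lower and 4 did not pass. Most of the rise in the sum was that of Cpa3, from a mean of 14320 to 23028. Fcer1a, the lower gene, went from 5758 to 4518. Of 12 myeloid genes 7 were higher, among them Itgam (1.82) and Csf3r (2.03), and 3 were lower, Elane, Prtn3 and Ctsg. Of 5 tested megakaryocyte genes 2 were higher and 2 lower, of 3 T and NK cell genes 2 were lower, and 3 of 3 stromal and endothelial genes, the abundant Pecam1 among them, and the single tested muscle gene, Ckm, were higher. The T cell genes Cd3d and Cd2 were at 0 in 5 of 6 libraries. Cd3g, too low to test, was at 3.91, 3.96 and 3.98 in DMSO and at 11.2, 6.21 and 12.7 with GSK-LSD1. The part of these cells and states in the subunit result was not tested.

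Some reads cannot be assigned with certainty. Of the 73 subunit genes, 22 have exons that overlap a gene on the opposite strand. An annotated near-copy (at least 90% identity over at least 50% of the transcript) exists for 11. Together with Ndufb8 and Ndufb9, which share exon bases only with a gene on their own strand, 29 are affected. Among the 44 with none of these, 20 were lower (45.5%) and 1 was higher (2.27%), with a median log2 change of -0.16. Over all tested genes, not sorted in this way, 20.5% were lower and 20.6% higher. Among those with a transcript under 1000 bases 32.4% were lower. Cox7a2, Atp5g3, Atp5g1, Uqcr10, Ndufv3 and Ndufc2 are in this group of 44, whereas Cox6a1, with 1 near-copy, and Atp5l are not.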

How the data were processed

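RNA from 6 samples (3 DMSO, 3 GSK-LSD1, grouped by title) was extracted with a column kit and sent to a sequencing company for library construction, per the labels' protocols. The deposited table holds a normalised signal per gene symbol and library. Per the submitters' processing notes, STAR, DESeq2, mm10 and GRCm38 were used, without versions or roles. Neither counting program nor annotation nor strand handling is given in the sources used here. In each library low values are whole multiples of the smallest value (tolerance 0.01), so the values are gene counts divided by a scaling factor; if that value is 1 read, libraries held 9572638 to 10199533 reads. That limits the precision of low genes. The authors' values were used as deposited, with no count model.

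Genes with a value of at least 10 in at least 3 libraries (11588) were log-transformed as log2(value + 1) and tested two-sided in R 4.3.3 by limma 3.58.1 with trended variance, Benjamini-Hochberg adjustment over all genes tested, threshold 0.05. Fold changes are on that scale and understate the change of low genes. The fit was tested on simulated data. Alternatives were another pseudocount, no filter or a stricter one, quantile, equal-total and upper-quartile scaling, no trend, sample weights, a replicate block, and leaving out each library. Transcript length was that of the shortest best-supported principal transcript (GRCm38).

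The members and gene lists, the neighbours of Ndufc2 and the genes under other names were chosen with earlier results of these data known. Every member could be named; by default, up to 6 largest changes per complex, the 3 highest levels per length, tissue isoforms and assembly factors were. The 22 symbols that a spreadsheet had turned into dates stayed in the tests. Single values of some genes are not reported here, though counts include them.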

Additional observations from a re-analysis of the deposited data

How the results depend on the processing

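The median log2 change of the subunit genes stayed below 0 in all 15 alternatives, and Ndufc2 stayed higher in all of them. Counts moved more. Without the mean-variance trend 9 subunit genes were lower (2 of complex I, 1 of III, 2 of IV and 4 of V), 12.7% beside 14.3% of all genes, and with quantile scaling 10 complex I genes were, and the complex V median moved from -0.18 to -0.12. Leaving out a library in turn gave 15 to 31 lower subunit genes and 1 to 2 higher (in complex I also 1 to 2). By complex the lower counts then were 2 to 10 (I), 1 to 5 (III), 5 to 9 (IV) and 6 to 10 (V). The share of Atp5g1 among c-ring genes, -0.42 points, ran from -0.965 to 0.128 when a library was left out, turning sign without GSK-LSD1 replicate 3. The cause of these moves was not tested. Of 615 results for single genes and complex medians under alternatives, 104 no longer passed, 12 passed newly and none reversed. The genes were only those that passed in the main test or in more than 2 alternatives. Members near 0 were thus left out, and the lack of reversals says little. The replicate block gave 27 lower subunit genes, all among the 29; same-numbered libraries did not deviate together (correlations -0.0241, -0.0276 and -0.00771), so the numbers pair nothing. The c-ring shares per merged exon length, chosen after seeing the data, kept their signs. Low values limit precision: the 95% confidence intervals of Cox7a1 and Cox6b2 ran from -0.98 to 0.39 and from -0.53 to 0.68 on the log2 scale.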
